A study of Homo sapiens with 22 samples.

Results

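The 10 genes described here belong to the BCL2 family, which decides at the mitochondrion whether a cell lives or dies. They are BCL2, BCL2L1, MCL1, BCL2A1, BAK1, BAD, BID, BCL2L11, PMAIP1, and BMF, and they were found by their symbols among the 20411 genes of the MOLM-13 and NB4 RNA-seq tables. All 10 were listed in both tables and all 10 passed the filter on low values, a mean of at least 1 RPKM over the 6 libraries of a cell line. RPKM scales the reads on a gene by its length and by the read total of the library, so levels of different genes can be compared within a library.

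Apoptosis through the mitochondrion is a contest between 3 groups of related proteins. The antiapoptotic members, here BCL2, BCL2L1 (BCL-XL), MCL1, and BCL2A1 (A1), hold the effectors BAK1 and BAX in check. The effectors make pores in the outer mitochondrial membrane when they are free to do so, which lets cytochrome c out and starts the caspases. The BH3-only members, here BAD, BID, BCL2L11 (BIM), PMAIP1 (NOXA), and BMF, sense stress and either occupy the antiapoptotic proteins or activate the effectors. Leukemic myeloid cells are known to lean on BCL2 and MCL1, and BCL2 is a drug target in acute myeloid leukemia (AML).

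MOLM-13 and NB4 are human AML cell lines, labelled as wild type. MOLM-13 carries an MLL rearrangement and NB4 the PML-RARA fusion of promyelocytic leukemia. Cells were grown with 2 μM FP54 or with the vehicle DMSO for 48 hours, and 3 libraries were made per cell line and treatment. FP54 joins an FTO binder to a VHL ligand so that FTO, an eraser of the m6A mark on RNA, is tagged for the proteasome. Each line is a single established culture, and nothing in the labels says whether the 3 libraries of a group came from separate cultures, so p-values measure only the spread between these libraries.

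The library totals implied by the RPKM, that is the reads by which the values were scaled, were from 16299701 to 17346913 in the MOLM-13 DMSO libraries and from 20654054 to 22344266 in the NB4 DMSO libraries. The FP54 libraries of NB4 held from 10595647 to 13071303 reads. In MOLM-13 the FP54 libraries held 19191055, 5829730, and 12028682 reads, so FP54 replicate 2 was the shallowest of all 12. Even there the lowest member, BCL2L1, had 63 reads. DMSO replicate 2 of MOLM-13 lay nearest to the FP54 libraries on the first principal component, at -10.28 against -30.36 and -33.84 for the other DMSO libraries and from 16.05 to 39.67 with FP54.

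The lines were checked against marker genes, whose levels in the separately made tables are set side by side without a test. HOXA9 and MEIS1, which MLL-rearranged cells express, had means of 21.3 and 6.36 RPKM in MOLM-13 DMSO libraries but 0.234 and 0.157 in NB4. PBX3 and FLT3 were likewise higher in MOLM-13, at 34.6 and 74.0 RPKM against 1.47 and 5.67, whereas HOXA10 was lower there, at 7.30 RPKM against 13.2 in NB4. MPO, the myeloid peroxidase abundant in promyelocytes, had a mean of 2170 RPKM in NB4 against 16.1 in MOLM-13, and HGF averaged 3.32 RPKM in NB4 and was at most 0.124 in MOLM-13 libraries. The other 4 markers listed for promyelocytic cells, all granule protease family genes, were higher in MOLM-13 than in NB4. ELANE averaged 186 RPKM in MOLM-13 and was at most 0.218 in NB4, CTSG averaged 116 against 58.5, AZU1 174 against 9.96, and PRTN3 413 against 61.0. These markers thus did not all point the same way, with MPO and HGF higher in NB4 and the 4 protease family genes higher in MOLM-13. With FP54 in NB4 the means fell to 9.49 RPKM for CTSG, 6.88 for AZU1, 15.9 for PRTN3, 0.242 for HGF, and 1116 for MPO. All of these were called lower, as were MPO and CTSG in MOLM-13. The listed myeloid marker PTPRC was called higher in both lines, with log2 fold changes of 0.55 in MOLM-13 and 0.71 in NB4. PBX3 was called higher in NB4 (0.55), while CD33, SPI1, CEBPA, and LYZ were called in neither line. The part of these changes in the results for the members was not tested. Of markers of other cell types, several were well above 0. In NB4 the T cell gene CD3D was at 6.35 RPKM with DMSO and 10.3 with FP54, while CD3E, CD3G, and CD2 were at most 1.14 RPKM in any library. EPCAM averaged 8.15 RPKM in NB4 with DMSO, and of the epithelial keratins KRT18 averaged 11.5 RPKM in NB4 and 7.35 in MOLM-13, KRT8 1.22 and 0.705, and KRT19 was listed at 0 in all 6 NB4 libraries. With FP54, KRT8 was called higher in NB4 and KRT18 lower in MOLM-13. Of the 3 B cell markers, CD79A alone reached a mean of 1 RPKM, in NB4. The erythroid and fibroblast lists summed to at most 0.464 RPKM in any library of either line.

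In MOLM-13 cells, FP54 lowered 2 of the 10 members and raised none. The antiapoptotic BCL2 fell to 25.2% of its DMSO level and the BH3-only BID to 59.1%. In NB4 cells, FP54 raised the BH3-only genes BMF 3.15-fold and PMAIP1 2.15-fold and the antiapoptotic BCL2A1 1.51-fold, and lowered BCL2 to 62.9% and BID to 69.6%. Changes were called in limma at the study's own cutoff, an unadjusted p under 0.01 and an absolute log2 fold change no smaller than 0.5. Of all tested genes, 9.3% were called higher and 9.04% lower in MOLM-13. In NB4 the shares were 18.6% higher (1834 genes) and 10.7% lower (1050 genes), and quantile normalization turned that split to 1280 higher and 1363 lower. Quantile normalization moved the median log2 fold change over all tested genes in NB4 from 0.07 to -0.03. With 10 genes, these counts lie within 1 or 2 genes of what the backgrounds give and are not read as a result about the family. The RPKM are shares of the poly(A) RNA of a culture, so a change in a few cells and a change in the RNA of every cell cannot be told apart.

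**Figure D1:**
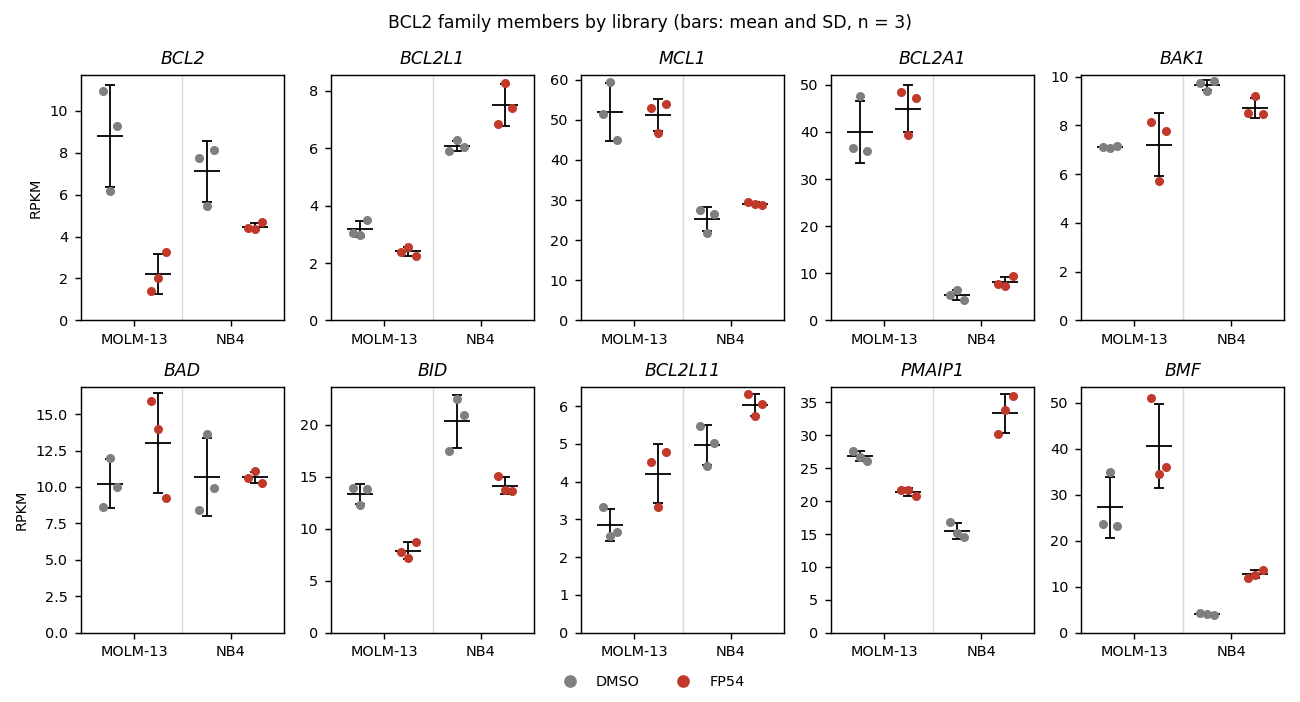
RPKM of the 10 members in each library, by cell line and treatment, with gray points for DMSO and red points for FP54. Horizontal marks and bars give the mean and SD of 3 libraries, and each panel has its own linear axis from 0. BCL2 and BID are lower with FP54 in both lines, and BMF and PMAIP1 are far higher with FP54 in NB4.

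BCL2, the founding survival gene of the family, lies on the minus strand at chr18:63123346-63320128 (hg38). In MOLM-13 its level was 10.96, 6.17, and 9.27 RPKM in DMSO replicates 1 to 3 and 1.39, 2.01, and 3.26 RPKM in FP54 replicates 1 to 3. The lowest DMSO library was DMSO replicate 2, the one nearest to the treated libraries, and it was still above every FP54 library. The fitted log2 fold change was -1.98 (SE 0.30, adjusted p = 0.00385, limma). Without DMSO replicate 2 it was -2.21, and without FP54 replicate 2, the shallowest library, it was -1.95. In NB4 the BCL2 level was 7.75, 5.45, and 8.13 RPKM with DMSO and 4.39, 4.36, and 4.67 RPKM with FP54, again without overlap. The log2 fold change there was -0.64 (SE 0.14, adjusted p = 0.00402, limma). With FP54, BCL2 had the lowest mean of the 10 members in both lines, at 2.22 RPKM in MOLM-13 and 4.47 RPKM in NB4, though in MOLM-13 its libraries overlapped those of BCL2L1.

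BCL2L1 encodes the long survival form BCL-XL and a short proapoptotic form, which gene-level values cannot separate. It lies at chr20:31664452-31723989. Its level in MOLM-13 was 3.05, 2.98, and 3.50 RPKM with DMSO and 2.38, 2.57, and 2.26 RPKM with FP54. The treatments did not overlap, but the log2 fold change of -0.39 (SE 0.17, adjusted p = 0.126, limma) was not called. In NB4 the level was 5.92, 6.27, and 6.06 RPKM with DMSO and 6.84, 8.27, and 7.40 RPKM with FP54. The NB4 log2 fold change was 0.29 (SE 0.10, adjusted p = 0.0316, limma), under the fold cutoff.

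MCL1, a short-lived survival protein on which many myeloid leukemias depend, lies at chr1:150560895-150579738 and was the most abundant member in 3 of the 4 groups. In MOLM-13 its level was 51.4, 59.4, and 45.1 RPKM with DMSO and 53.01, 46.6, and 53.9 RPKM with FP54. These libraries overlapped, and the 95% confidence interval of the log2 fold change ran from -0.34 to 0.31. In NB4 the MCL1 level was 27.6, 21.7, and 26.5 RPKM with DMSO and 29.5, 28.9, and 28.9 RPKM with FP54. The NB4 libraries did not overlap, but the log2 fold change of 0.21 (adjusted p = 0.0979, limma) was not called, and it was 0.11 without DMSO replicate 2.

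BCL2A1 encodes A1, a survival protein of myeloid and lymphoid cells that NF-kB switches on, and lies at chr15:79960892-79971196. Its level differed widely between the lines, at a DMSO mean of 40.1 RPKM in MOLM-13 and 5.39 RPKM in NB4. The 2 tables were made separately, so this baseline is given without a test. In NB4 BCL2A1 was at 5.401, 6.51, and 4.27 RPKM with DMSO and at 7.68, 7.34, and 9.46 RPKM with FP54. The log2 fold change was 0.60 (SE 0.15, adjusted p = 0.00800, limma), and it fell to 0.45 and 0.49, under the cutoff, without DMSO replicate 3 or FP54 replicate 3. In MOLM-13 the levels were 36.7, 47.6, and 35.9 RPKM with DMSO and 48.4, 39.3, and 47.2 RPKM with FP54. These overlapped, with a log2 fold change of 0.17 (adjusted p = 0.460, limma). Leaving out DMSO replicate 2 raised it to 0.30 and leaving out FP54 replicate 2 to 0.27, whereas removal of DMSO replicate 3 gave 0.099, and none of these values was called.

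BAK1, the pore-forming effector in the list, lies at chr6:33572547-33580293. It was between 7.07 and 7.17 RPKM in the MOLM-13 DMSO libraries and between 5.74 and 8.13 RPKM with FP54. Its log2 fold change in MOLM-13 had a confidence interval from -0.37 to 0.37. In NB4 BAK1 was between 9.42 and 9.83 RPKM with DMSO and between 8.47 and 9.21 RPKM with FP54, a difference of -0.15 on the log2 scale (adjusted p = 0.183, limma) that was not called.

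Among the BH3-only members, BID links death receptors to the mitochondrion once caspase-8 has cut it. It lies at chr22:17734138-17774770. In MOLM-13 its level was 13.94, 12.27, and 13.81 RPKM with DMSO and 7.72, 7.18, and 8.76 RPKM with FP54. The groups were well apart, with a log2 fold change of -0.75 (SE 0.14, adjusted p = 0.00867, limma). It was -0.81 without DMSO replicate 2 and -0.69 without FP54 replicate 2. In NB4 the BID level was 17.5, 22.5, and 21.0 RPKM with DMSO and 15.1, 13.8, and 13.6 RPKM with FP54. The NB4 change of -0.51 (SE 0.11, adjusted p = 0.00229, limma) lay close to the fold cutoff of 0.5, and it was between -0.44 and -0.495, and not called, when DMSO replicate 2 or 3 or FP54 replicate 2 or 3 was left out.

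PMAIP1 encodes NOXA, a small BH3-only protein that binds mainly MCL1 and A1, and lies on the plus strand at chr18:59899996-59904305. In NB4 its level was 16.8, 15.2, and 14.5 RPKM with DMSO and 30.2, 33.9, and 36.0 RPKM with FP54. Every FP54 library was far above every DMSO library, and the log2 fold change was 1.10 (SE 0.097, adjusted p = 9.78e-06, limma). PMAIP1 passed MCL1 there and became the most abundant of the 10 members. In MOLM-13 the level was 27.7, 26.8, and 26.1 RPKM with DMSO and 21.8, 21.7, and 20.8 RPKM with FP54. All FP54 libraries lay below all DMSO libraries, but the log2 fold change of -0.32 (SE 0.12, adjusted p = 0.0908, limma) was under the cutoff.

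BMF, a BH3-only protein that is held at the cytoskeleton and released by stress, lies at chr15:40087890-40108892. In NB4 its level was 4.18, 4.15, and 3.79 RPKM with DMSO and 11.99, 12.6, and 13.7 RPKM with FP54. The groups were far apart, and the log2 fold change of 1.63 (SE 0.097, adjusted p = 6.92e-07, limma) was the largest rise of any member in either line. BMF moved from the lowest of the 10 members in NB4 DMSO libraries to the fourth with FP54. In MOLM-13 the level was 23.7, 35.0, and 23.3 RPKM with DMSO and 51.1, 34.6, and 36.1 RPKM with FP54. DMSO replicate 2 overlapped the FP54 libraries, and the log2 fold change of 0.57 (SE 0.20, adjusted p = 0.0722, limma) was not called. Without that library it was 0.76 and was called. Leaving out FP54 replicate 1 gave 0.40, DMSO replicate 3 0.47, and DMSO replicate 1 0.48, all under the cutoff. Without FP54 replicate 2 or 3 it was 0.68 and 0.65, also not called.

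BCL2L11 encodes BIM, a BH3-only protein that can bind every survival member, in several splice forms that were not separated. It lies at chr2:111119378-111168444. In MOLM-13 its level was 3.32, 2.57, and 2.66 RPKM with DMSO and 4.53, 3.32, and 4.78 RPKM with FP54, and the highest DMSO and the lowest FP54 library were equal to 3 digits. The log2 fold change of 0.54 (SE 0.19, adjusted p = 0.0758, limma) was not called, and it was called at 0.70 without FP54 replicate 2. Leaving out DMSO replicate 2 or 3 or FP54 replicate 1 or 3 gave 0.44 to 0.495, under the cutoff. Without DMSO replicate 1 it was 0.65 and was not called. In NB4 the level was 5.48, 4.41, and 5.03 RPKM with DMSO and 6.31, 5.73, and 6.05 RPKM with FP54. The NB4 log2 fold change was 0.28 (adjusted p = 0.0535, limma).

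BAD, which growth factor signals keep inactive by phosphorylation and which binds BCL2 and BCL-XL, lies at chr11:64269830-64284704. It ranged from 8.64 to 11.997 RPKM with DMSO and from 9.25 to 15.9 RPKM with FP54 in MOLM-13. In NB4 the range was 8.42 to 13.6 RPKM with DMSO and 10.3 to 11.1 RPKM with FP54. BAD was not called in either line, with log2 fold changes of 0.32 (adjusted p = 0.301, limma) and 0.03 (adjusted p = 0.887, limma). Leaving out FP54 replicate 1 took the MOLM-13 value to 0.16 and leaving out DMSO replicate 1 to 0.21, whereas removal of FP54 replicate 3 gave 0.55, and none of these values was called. In NB4 it ran from -0.13 without DMSO replicate 1 to 0.22 without DMSO replicate 2.

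**Figure D2:**
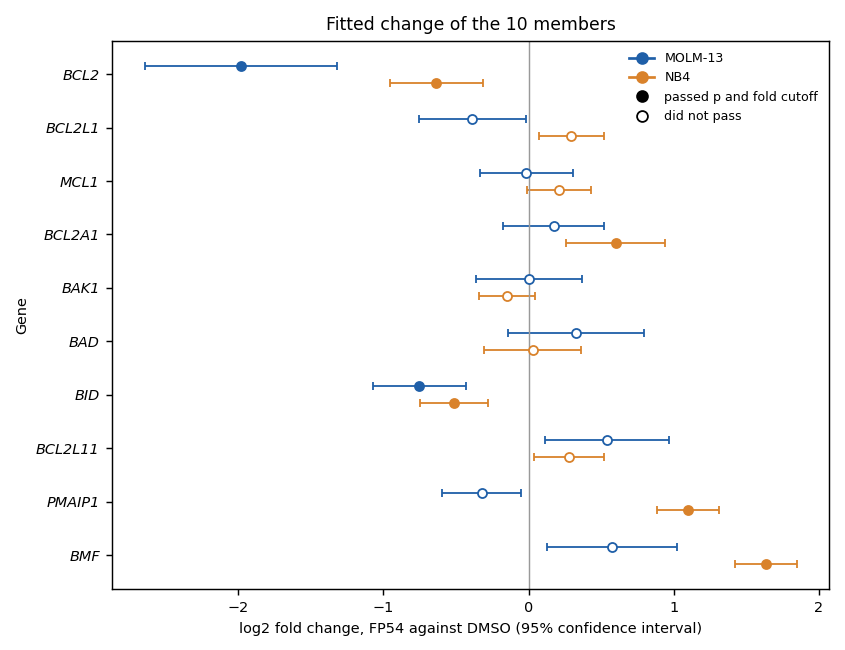
Fitted log2 fold change of each member with FP54 against DMSO and its 95% confidence interval, in MOLM-13 (blue) and NB4 (orange), from 3 libraries per treatment. Filled points passed the cutoff and open points did not. BCL2 and BID are filled on the left of 0 in both lines, and BCL2A1, PMAIP1, and BMF are filled on the right in NB4.

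Whether libraries overlapped gave a coarser picture. In MOLM-13 the treatments did not overlap for 5 of 10 members, BCL2, BCL2L1, BID, BCL2L11, and PMAIP1, against 37.1% of all tested genes. In NB4 they did not overlap for 9 of 10, BAD being the exception, against 60.5% of all tested genes. An exact permutation test of 3 against 3 libraries cannot give a p below 0.1.

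In both lines MCL1 led the members with DMSO, followed by BCL2A1, BMF, and PMAIP1 in MOLM-13 and by BID and PMAIP1 in NB4. MCL1 and BID overlapped in NB4. The MCL1 and BCL2A1 libraries overlapped in MOLM-13, as did the BMF and PMAIP1 libraries, while BCL2A1 lay apart from BMF. With FP54 the order in NB4 became PMAIP1, MCL1, BID, and BMF, with PMAIP1 apart from MCL1 and BID overlapping BMF. The summed RPKM of the 4 antiapoptotic members divided by that of the 5 BH3-only members was 0.889, 0.668, and 0.829 in the NB4 DMSO libraries and 0.652, 0.635, and 0.633 with FP54. In MOLM-13 this ratio was 1.32, 1.31, and 1.23 with DMSO and 1.04, 1.12, and 1.34 with FP54. The NB4 groups came close but did not overlap, whereas the highest MOLM-13 value was an FP54 library. These sums are a description of the listed transcripts and are dominated by the most abundant ones.

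The response to FP54 differed between the lines for 4 of the 10 members, all in the direction of a higher log2 fold change in NB4. This was tested as an interaction of cell line and treatment in 1 limma model of the 12 libraries, at an adjusted p below 0.05 over the 8849 genes tested in both lines. Of those genes, 10.5% (926) had a higher response in NB4 and 3.75% (332) a lower one, and quantile normalization turned this split to 813 and 891. That normalization moved the median interaction over all genes from 0.08 to -0.02.

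For PMAIP1, which was lower with FP54 in every MOLM-13 comparison of libraries and higher in every NB4 one, the difference of log2 fold changes was 1.42 (SE 0.15, adjusted p = 1.69e-05, limma). BMF had a difference of 1.06 (SE 0.24, adjusted p = 0.00846, limma). BCL2 fell in both lines, by 1.34 less on the log2 scale in NB4 (SE 0.37, adjusted p = 0.0254, limma). For BCL2L1 the difference was 0.68 (SE 0.17, adjusted p = 0.0173, limma), with point estimates of opposite sign in the lines. The calls for BCL2 and BCL2L1 were each lost when some libraries were left out, with adjusted p (limma) of up to 0.102 for BCL2 and 0.112 for BCL2L1.

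The remaining 6 members had no called difference between the lines. The interval was -0.13 to 0.61 for BID and -0.07 to 0.92 for BCL2A1. It was -0.15 to 0.60 for MCL1, -0.54 to 0.24 for BAK1, -0.91 to 0.31 for BAD, and -0.73 to 0.21 for BCL2L11. These intervals still allow sizeable differences, most of all for BAD and BCL2A1.

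**Figure D3:**
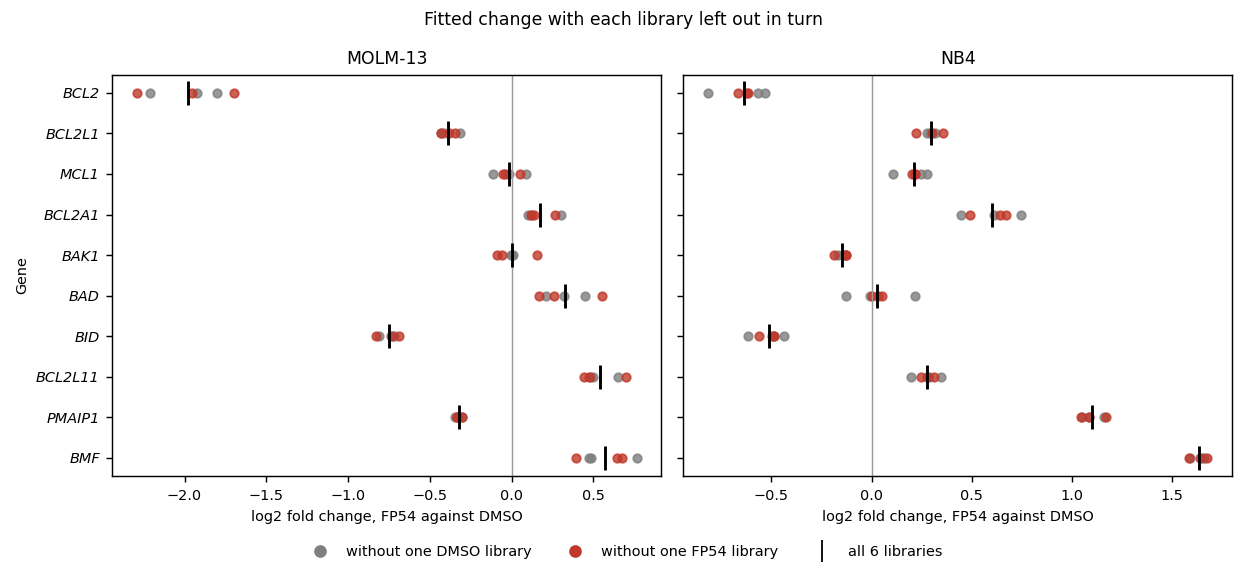
Log2 fold change of each member when 1 of the 6 libraries of a cell line was left out, in MOLM-13 (left) and NB4 (right). Gray points leave out a DMSO library, red points an FP54 library, and the black mark uses all 6. BCL2 and BID stay below 0 in both lines and BMF and PMAIP1 stay above 1 in NB4, while MCL1 and BAK1 in MOLM-13 and BAD in NB4 lie on both sides of 0.

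The 3 members called higher in NB4 were BMF, PMAIP1, and BCL2A1, and their promoters are shown because members that move together invite a look at what lies in front of them. The bases run 5′ to 3′ on the strand of the gene, upstream of the outermost RefSeq start (GRCh38.p14) and outside the GENCODE gene, and capitals mark matches to 4 motifs searched on both strands. The motifs were the cyclic AMP response element TGACGTCA, the C/EBP-ATF element TGATGNAA, the E-box CACGTG, and the GC box GGGCGG. BMF is at chr15:40108893-40109129 on the minus strand, PMAIP1 at chr18:59899746-59899995 on the plus strand, and BCL2A1 at chr15:79971197-79971446 on the minus strand.
BMF: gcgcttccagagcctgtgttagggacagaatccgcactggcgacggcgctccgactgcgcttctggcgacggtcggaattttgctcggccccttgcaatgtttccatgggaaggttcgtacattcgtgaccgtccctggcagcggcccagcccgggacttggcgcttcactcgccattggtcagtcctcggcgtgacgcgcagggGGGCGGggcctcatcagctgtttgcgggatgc
PMAIP1: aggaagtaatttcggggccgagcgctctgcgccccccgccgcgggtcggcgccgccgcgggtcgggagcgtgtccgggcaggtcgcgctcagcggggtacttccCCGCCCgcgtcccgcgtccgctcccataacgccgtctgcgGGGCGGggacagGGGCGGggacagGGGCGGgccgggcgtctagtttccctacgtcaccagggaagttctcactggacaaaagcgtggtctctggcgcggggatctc
BCL2A1: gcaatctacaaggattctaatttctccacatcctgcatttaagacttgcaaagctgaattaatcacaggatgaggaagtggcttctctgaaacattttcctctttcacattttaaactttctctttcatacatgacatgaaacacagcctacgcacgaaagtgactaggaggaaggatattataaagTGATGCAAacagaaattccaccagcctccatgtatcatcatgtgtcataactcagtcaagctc

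The 3 stretches share none of the motifs across all of them. GC content was 64.6% for BMF and 72.8% for PMAIP1 but 38.8% for BCL2A1. BMF had 1 GC box and PMAIP1 had 4, while BCL2A1 had a C/EBP-ATF element that starts 63 bases before the transcription start. Among all 35116 RefSeq promoter windows, which run from 250 bases before to 50 after a start, a GC box was found in 45.0%, an E-box in 7.26%, a C/EBP-ATF element in 3.62%, and a cyclic AMP response element in 1.85%. The 9 members with an entry had 16 windows, several of them overlapping starts of 1 gene. A GC box lay in 11 of these windows, an E-box in 2 windows of BID, the C/EBP-ATF element in 1, and the cyclic AMP response element in none. In the stretches shown no matches overlapped each other. Only exact matches were searched, so near matches are not marked or counted. A match is a run of letters and not a shown binding site.

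Of 13 further family genes, 8 were tested in MOLM-13 and 9 in NB4. In MOLM-13, BIK was called lower and none higher. In NB4, BBC3, BNIP3, and BNIP3L were called higher and BIK lower. Over all tested genes, 9.3% were called higher and 9.04% lower in MOLM-13, and 18.6% higher and 10.7% lower in NB4, so calls in so short a list say little about it as a group. The median log2 fold change of those tested was -0.13 in MOLM-13, where that of all tested genes was 0.0033, and 0.25 in NB4, where that of all tested genes was 0.07.

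BIK, a BH3-only protein of the endoplasmic reticulum, was at 8.52, 8.77, and 9.82 RPKM with DMSO and 4.93, 3.43, and 4.72 RPKM with FP54 in MOLM-13. In NB4 it was at 10.5, 14.7, and 8.99 RPKM with DMSO and 4.47, 4.07, and 3.70 RPKM with FP54. It fell in both lines without overlap, by 1.05 on the log2 scale in MOLM-13 (adjusted p = 0.00510, limma) and by 1.43 in NB4 (adjusted p = 5.02e-05, limma). The difference between the lines was not called (interval -0.92 to 0.16).

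BBC3 encodes PUMA, a BH3-only protein that can bind every survival member. In NB4 it was at 7.18, 8.92, and 5.76 RPKM with DMSO and 11.8, 14.2, and 12.2 RPKM with FP54. The log2 fold change was 0.82 (SE 0.15, adjusted p = 0.00106, limma). In MOLM-13 BBC3 was at 26.2 ± 1.8 RPKM with DMSO and 23.0 ± 2.9 with FP54 (SD, n = 3), and the groups overlapped. The response differed between the lines by 1.01 (adjusted p = 0.00588, limma).

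BNIP3 and BNIP3L (NIX) are mitochondrial proteins with a BH3-like stretch that mark mitochondria for removal. In NB4 BNIP3 rose from 48.4 ± 1.1 to 79.8 ± 6.0 RPKM and BNIP3L from 15.04 ± 1.6 to 35.0 ± 3.8 RPKM (SD, n = 3). Their log2 fold changes were 0.72 (adjusted p = 5.66e-05, limma) and 1.21 (adjusted p = 9.78e-06, limma). In MOLM-13 both were higher at baseline, at 150 ± 17 and 130 ± 23 RPKM with DMSO, and FP54 libraries overlapped with DMSO. The difference between the lines was 0.79 for BNIP3 (adjusted p = 0.00304, limma) and 1.10 for BNIP3L (adjusted p = 0.00116, limma).

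The effector BAX, partner of BAK1, was not called in either line. It was at 33.0 ± 5.0 RPKM with DMSO and 27.4 ± 2.4 with FP54 in MOLM-13, and at 10.2 ± 0.97 and 10.5 ± 0.67 in NB4 (SD, n = 3). The survival gene BCL2L2 (BCL-W) was at 8.31 and 8.43 RPKM in MOLM-13 and at 4.04 and 4.58 in NB4, also uncalled. BCL2L10 was tested only in NB4, where it went from 4.02 to 5.50 RPKM, a log2 fold change of 0.44 under the fold cutoff (adjusted p = 0.00340, limma). BCL2L12 had log2 fold changes of -0.29 in MOLM-13 and -0.38 in NB4, and BCL2L13 of 0.11 and 0.25, none of them called. BOK, HRK, BCL2L14, and BCL2L15 were at most 0.197 RPKM in any library and were not tested.

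HRK had low values in NB4 and fell below the filter. It was at 0.011 RPKM with DMSO and 0.124 with FP54. The 416 olfactory receptor genes, which leukemia cells have no known use for, averaged from 0.00168 to 0.00372 RPKM per gene in the NB4 DMSO libraries and from 0.0496 to 0.0549 with FP54. In MOLM-13 they averaged from 0.00386 to 0.00831 RPKM. The part of this low-level rise in the result for HRK was not tested. The members were at 3.79 RPKM or more in every NB4 library, and the part of this rise in their results was not tested either.

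**Figure D4:**
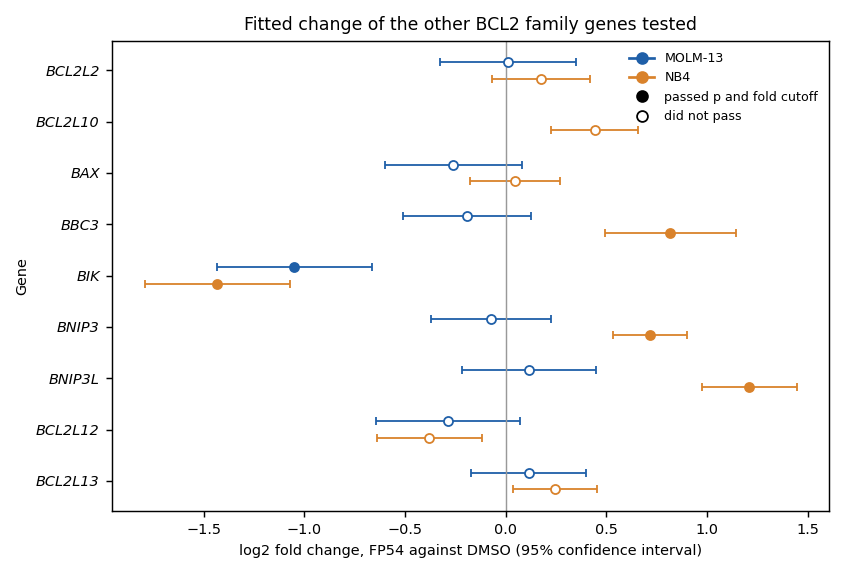
Fitted log2 fold change of the further BCL2 family genes tested, with 95% confidence intervals, FP54 against DMSO in MOLM-13 (blue) and NB4 (orange). Filled points passed the cutoff. BIK lies at -1.05 and -1.43 in the lines, and BBC3, BNIP3, and BNIP3L are filled above 0 in NB4 alone.

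Genes around the family were taken from lists by function. Downstream of the pore are cytochrome c, the apoptosome, and the caspases. Of 15 such genes tested in each line, 1 was higher and 3 lower in MOLM-13, and 2 were higher and 1 lower in NB4. Over all tested genes the shares were 9.3% higher and 9.04% lower in MOLM-13 and 18.6% higher and 10.7% lower in NB4, so most of these counts are near the background. The list's median log2 fold change was -0.24 in MOLM-13 and -0.34 in NB4, against 0.0033 and 0.07 over all tested genes. In MOLM-13 the executioner caspase gene CASP6 rose from 5.68 ± 0.32 to 10.4 ± 1.2 RPKM (SD, n = 3, log2 fold change 0.86, adjusted p = 0.00593, limma). CYCS, cytochrome c itself, was at 33.3, 21.7, and 33.4 RPKM with DMSO and 5.04, 10.7, and 12.96 RPKM with FP54 there, a log2 fold change of -1.69 (adjusted p = 0.00780, limma). AIFM1, a mitochondrial flavoprotein, was also lower in MOLM-13 (-0.78, adjusted p = 0.0297, limma), as was the porin gene VDAC1 (-0.71, adjusted p = 0.0133, limma). In NB4, APAF1, the scaffold of the apoptosome, rose from 13.2 ± 1.6 to 21.0 ± 1.6 RPKM (SD, n = 3, log2 fold change 0.67, adjusted p = 5.09e-04, limma). The mitochondrial nuclease gene ENDOG fell by 0.89 in NB4 (adjusted p = 3.56e-04, limma). The response of CASP6 was lower in NB4 than in MOLM-13 by an interaction of -0.99 (adjusted p = 0.00159, limma), and that of CYCS was higher by 1.27 (adjusted p = 0.0317, limma). CYCS was lower with FP54 in NB4 too, at a log2 fold change of -0.42 (adjusted p = 0.00137, limma) under the fold cutoff. That of CASP6 in NB4 was -0.13 (adjusted p = 0.326, limma).

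Caspases are restrained by inhibitor of apoptosis proteins. None of 6 such genes was called in MOLM-13 at the cutoff. None had an adjusted p below 0.05 (limma) either, a threshold that 955 of all 9710 tested genes passed as higher and 905 as lower. With 9.3% of all tested genes called higher and 9.04% lower in this line, no call among 6 genes is close to the background. The list's median log2 fold change was 0.08 in MOLM-13 and 0.27 in NB4, against 0.0033 and 0.07 over all tested genes. Of 5 genes tested in NB4, 2 were higher and 1 lower, where 18.6% of all tested genes were higher and 10.7% lower. There BIRC3 (cIAP2) rose from 1.20 to 2.78 RPKM (1.15, adjusted p = 8.58e-05, limma) and BIRC6 from 10.6 to 16.03 RPKM (0.62, adjusted p = 0.00802, limma). The call for BIRC6 was lost without DMSO replicate 2, at a log2 fold change of 0.40. BIRC5 (survivin), which dividing cells express, fell from 34.7 to 20.8 RPKM in NB4 (-0.73, adjusted p = 4.92e-05, limma).

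Death receptors feed into the family through BID. Of 13 genes of this arm tested in MOLM-13, 3 were higher and none lower, and of 12 in NB4, 4 were higher and none lower. Higher calls made up 9.3% of all tested genes in MOLM-13 and 18.6% in NB4, and lower calls 9.04% and 10.7%. The list's median log2 fold change was 0.10 in MOLM-13 and 0.25 in NB4, against 0.0033 and 0.07 over all tested genes. TNFSF10, the ligand TRAIL, rose in both lines, from 3.00 to 4.91 RPKM in MOLM-13 (0.69, adjusted p = 0.0170, limma) and from 4.01 to 10.6 RPKM in NB4 (1.39, adjusted p = 1.37e-05, limma). TNFRSF10B, the TRAIL receptor DR5, was at 6.26, 5.36, and 5.71 RPKM with DMSO and 15.7, 16.5, and 15.5 RPKM with FP54 in NB4, a log2 fold change of 1.45 (adjusted p = 1.31e-06, limma). In MOLM-13 DR5 was already at 54.7 RPKM with DMSO and was at 49.9 with FP54, which was not called, and the lines differed by 1.58 (adjusted p = 6.37e-06, limma). The decoy receptor gene TNFRSF10C was called higher in MOLM-13 at 1.07 (adjusted p = 0.0273, limma) and lost that call without DMSO replicate 3, FP54 replicate 1, or FP54 replicate 3. In NB4 it rose by 1.38 (adjusted p = 5.83e-05, limma), as did the decoy TNFRSF10D by 1.04 (adjusted p = 2.89e-05, limma). CFLAR, the inhibitor of caspase-8, completed the MOLM-13 calls at 0.57 (adjusted p = 0.0268, limma).

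**Figure D5:**
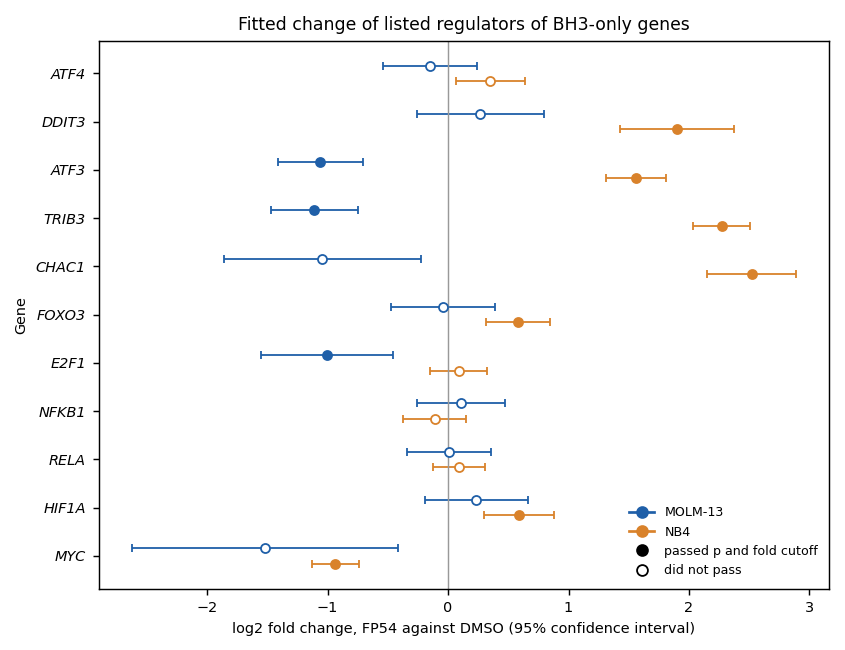
Fitted log2 fold change with FP54 against DMSO and its 95% confidence interval, in MOLM-13 (blue) and NB4 (orange), for listed regulators of BH3-only genes tested in both lines, from 3 libraries per treatment. Filled points passed the cutoff and open points did not. TRIB3 and ATF3 are filled on opposite sides of 0 in the lines.

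The transcription factors and stress genes that act upstream of BH3-only genes made up a list of 12 tested genes in each line. In MOLM-13, 4 were called lower, none higher, and 8 were not called, where 9.3% of all tested genes were higher and 9.04% lower. In NB4, 6 were called higher, 1 lower, and 5 were not called, where 18.6% of all tested genes were higher and 10.7% lower. The median log2 fold change of the list was -0.52 in MOLM-13 and 0.47 in NB4, where the medians of all tested genes were 0.0033 and 0.07. In NB4 the largest rises were CHAC1, a glutathione-degrading enzyme induced through ATF4, at 2.52 (adjusted p = 1.52e-06, limma) and TRIB3, a pseudokinase of the same stress response, at 2.27 (adjusted p = 1.73e-07, limma). TRIB3 was at 17.3, 17.9, and 14.1 RPKM with DMSO and 76.6, 87.1, and 75.1 RPKM with FP54 in NB4. In MOLM-13 TRIB3 was at 19.1, 13.7, and 18.3 RPKM with DMSO and 7.49, 7.30, and 8.49 RPKM with FP54, a log2 fold change of -1.11 (adjusted p = 0.00339, limma). ATF3, a stress-induced transcription factor, rose by 1.56 in NB4 (adjusted p = 2.65e-06, limma) and had a log2 fold change of -1.06 in MOLM-13 (adjusted p = 0.00385, limma). The lines differed by 3.38 for TRIB3 (adjusted p = 7.17e-08, limma) and by 2.63 for ATF3 (adjusted p = 6.68e-07, limma).

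DDIT3, the factor CHOP, was at 18.1, 30.5, and 14.7 RPKM with DMSO and 69.8, 84.9, and 71.8 RPKM with FP54 in NB4, a rise of 1.90 (adjusted p = 4.82e-05, limma). In MOLM-13 DDIT3 overlapped between treatments (0.27, adjusted p = 0.450, limma). The transcript of ATF4 itself was at 229 and 288 RPKM in NB4 and 381 and 345 RPKM in MOLM-13, with DMSO and FP54 respectively, and was not called. FOXO3 and HIF1A completed the NB4 rises at 0.58 and 0.59 (adjusted p = 0.00233 and 0.00377, limma). MYC fell by 0.94 in NB4 (adjusted p = 1.62e-05, limma). In MOLM-13 its log2 fold change was -1.52 with a wide spread (SE 0.50, adjusted p = 0.0567, limma), which was not called, and the difference between the lines was not called either (interval -0.68 to 1.85). E2F1, a cell cycle factor, was also called lower in MOLM-13 (-1.004, adjusted p = 0.0216, limma).

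Of 5 genes that set the turnover of the MCL1 protein, none was called in either line. Over all tested genes 9.3% were called higher and 9.04% lower in MOLM-13, and 18.6% and 10.7% in NB4, so no call among 5 genes is not far from the background. The list's median log2 fold changes were 0.15 in MOLM-13 and 0.25 in NB4, against 0.0033 and 0.07 over all tested genes. At an adjusted p below 0.05 with no minimum fold (limma), 2 of these 5 passed in NB4, both as higher. Over all 9853 tested genes there, 2935 were higher and 2164 lower, so 2 of 5 genes says little about the list. None passed in MOLM-13, where 955 of 9710 were higher and 905 lower.

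Genes with the pattern most like that of a member were picked by the Pearson correlation of log2(RPKM + 0.1) over the 12 libraries, after the mean of each cell line was taken out, among the 8849 genes. The libraries share treatment and line, so these values are a description only. For BCL2 the closest were ELOVL6 (r = 0.994), KCNQ5 (0.991), and FBXO22 (0.987). ELOVL6, a fatty acid elongase, went from 6.02 to 2.07 RPKM in MOLM-13 and from 1.77 to 1.18 RPKM in NB4. For BID they were SRSF9 (0.978), TUBA1C (0.977), and then ACOT7. For BMF they were NKIRAS2 (0.989), L1CAM (0.989), and ZFYVE28 (0.987), and L1CAM, a cell adhesion gene, went from 0.819 to 6.37 RPKM in NB4. For PMAIP1 they were DNHD1 (0.980), SEL1L3 (0.978), and ADM2 (0.977). ADM2, a secreted peptide gene, went from 0.190 to 4.07 RPKM in NB4 and from 3.35 to 1.03 RPKM in MOLM-13.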

How the data were processed

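Of the 22 labelled samples, the 12 mRNA-seq libraries were used, and the 10 from m6A-seq and polysome-seq are not analysed here. The authors selected poly(A) RNA, trimmed reads with Cutadapt 4.8, removed duplicates with Clumpify, aligned to hg38 with STAR 2.7.11b, and counted protein-coding GENCODE genes with featureCounts 2.0.3. The deposited values are RPKM made by the authors. The strand setting, gene length, and library total behind them are not given in the sources used here. MCL1 and BAD overlap coding genes on the other strand (ADAMTSL4 and GPR137). That the NB4 table holds NB4 cells is known from its name.

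Reads were recovered by multiplying RPKM by GENCODE v44 exon lengths (20329 genes). Between 98.5% and 99.1% of values below 100 reads then lay within 0.05 of a whole number. Read numbers of BCL2L11 did not come out whole, and limits drawn from reads cover counting error only. Positions are from GENCODE v44. Promoters are RefSeq windows, found for 9 members.

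log2(RPKM + 0.1) was fitted with limma 3.58.1 in R 4.3.3 (eBayes with trend), for genes with a mean of at least 1 RPKM, with Benjamini-Hochberg adjustment over all tested genes. Fold changes on this scale understate the change of low genes. Python 3.11.15, numpy 2.4.6, pandas 2.3.3, and matplotlib 3.10.9 were used otherwise. The fits were tested on simulated data. The members, lists, and alternatives were chosen with earlier results of these data known. All members and tested family genes are named, and from each further list the 2 called genes with the largest rise and the 2 with the largest fall per line. VDAC1, TNFRSF10C in NB4, TNFRSF10D, CFLAR, DDIT3, ATF4, ATF3 in NB4, FOXO3, HIF1A, and E2F1 were named after their values were seen. So were HRK, and CASP6 and CYCS in NB4 and between lines. Some listed genes and 1 gene list are not reported here. Alternatives were other pseudocounts, filters, scalings, cutoffs, and variance models, limma-voom on the recovered reads, the replicate number as a block, and leaving out each library.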

Additional observations from a re-analysis of the deposited data

Results flagged for a closer look

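The log2 fold change with FP54 differed between NB4 and MOLM-13, by a test of the difference itself (limma interaction, adjusted p below 0.05), for 4 members and 3 further family genes. The NB4 minus MOLM-13 difference was 1.42 for PMAIP1, 1.34 for BCL2, 1.06 for BMF, and 0.68 for BCL2L1. It was 1.10 for BNIP3L, 1.01 for BBC3, and 0.79 for BNIP3. All 7 were in the direction of a higher log2 fold change in NB4, where 926 of 8849 genes had such a difference and 332 the opposite. MOLM-13 FP54 replicate 2 was the shallowest library and MOLM-13 DMSO replicate 2 lay nearest to the treated libraries. The part of either in these differences was not tested beyond leaving libraries out.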

How the results depend on the processing

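BCL2 and BID in MOLM-13 and BMF and PMAIP1 in NB4 kept their direction under every alternative run. They were called under all of them, except BID when a log2 fold change of at least 1 with p below 0.05 was asked for. These calls rest on the unadjusted p. With no filter on low values, the adjusted p (limma) in MOLM-13 was 0.0895 for BCL2 and 0.0552 for BID. The count of members called higher in MOLM-13 (0) was 1 with quantile normalization and 1 with limma-voom on recovered reads (BCL2L11 in both), and 0 to 1 with a library left out. The recovered reads of BCL2L11 did not come out whole, so its limma-voom call rests on uncertain read numbers. The count called lower in MOLM-13 (2) was 1 under the rule of a log2 fold change of at least 1. The count called lower in NB4 (2) was 1 with a pseudocount of 1 and 1 with quantile normalization (both without BID), 1 with no filter (without BCL2), 0 under that rule, and 1 to 2 with a library left out. NB4 members called higher (3) numbered 2 to 4. BCL2A1 was not called with quantile normalization or with no filter. The 4 interactions became 2 to 4 with a library left out of both lines, where BCL2 was lost without DMSO replicate 1, DMSO replicate 3, FP54 replicate 1, or FP54 replicate 2, and BCL2L1 without DMSO replicate 1, DMSO replicate 3, or FP54 replicate 3. Under the other alternatives, 2 interaction calls of members were lost, among them that of BCL2L1 with the replicate block. Any lost call was one of BCL2 or BCL2L1, as BMF and PMAIP1 had adjusted p (limma) of at most 0.0473 and 0.000975. Where calls were lost, the cause was not tested.

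Replicate numbers did not pair the libraries, with correlations of same-numbered deviations of -0.262, -0.134, and -0.058 in MOLM-13 and -0.143, 0.075, and 0.123 in NB4. With a replicate block, calls over all genes were 817 higher and 880 lower in MOLM-13 and 1862 and 1050 in NB4, and the interaction gave 681 and 218. The interaction of BCL2L1 then had an adjusted p of 0.0540 (limma), which left 3 members, and no other member's call changed.

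Uncalled values near 0 changed sign. In MOLM-13, MCL1 was 0.058 with quantile normalization and -0.11 to 0.086 with a library left out. BAK1 was -0.0099 with median-ratio scaling and -0.091 to 0.16, BCL2L2 was -0.0066 with limma-voom and -0.088 to 0.11, and BNIP3 was -0.14 to 0.019. In NB4, BAD was -0.036 with median-ratio scaling, -0.0065 with quantile normalization, and -0.13 to 0.22. BCL2L2 was -0.022 with quantile normalization, and BAX was -0.019 with median-ratio scaling and -0.0053 to 0.12. Between lines, BCL2L2 was -0.043 with quantile normalization and BCL2L12 was -0.26 to 0.10 with a library left out.

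Counts over all genes moved by over 1.5 times with no filter (530 lower in MOLM-13, 4265 higher in NB4), with a mean of at least 5 RPKM (509 and 560 in MOLM-13, 789 higher in NB4, 432 and 201 for the interaction), under the rule of a log2 fold change of at least 1 (240 and 325 in MOLM-13, 675 and 138 in NB4), and at an adjusted p below 0.05 with no minimum fold (2935 and 2164 in NB4). Leaving DMSO replicate 3 out gave 593 higher and 462 lower calls in MOLM-13 and 498 and 152 for the interaction. Leaving FP54 replicate 1 out gave 540 and 503 in MOLM-13 and 561 and 160 for the interaction. MOLM-13 had 694 and 545 calls with DMSO replicate 1 removed, and the interaction 601 and 261 with FP54 replicate 2 removed.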
